A study of Mus musculus with 4 samples.

Results

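The genes of DNA replication and of deoxynucleotide synthesis were followed in helper T cells from the spleen. The members are 45 gene rows, taken by symbol from the 23700 rows of each deposited table; of 46 names on the list, Cdc45l is the older symbol of Cdc45 and had no row of its own. They are described in 2 groups of 2 libraries: KO 1 and KO 2 carry the label RIPK1-KO, a loss of RIPK1 restricted to T cells, and WT 1 and WT 2 the label wild type. All 4 came from C57BL/6 mice 43 weeks old, with no treatment named beyond the word Ctrl in the titles. Neither the driver of the deletion nor the deleted exons are named in the labels. The labels also do not say whether each library is from its own mouse, so the p-values below measure a spread between libraries that may be technical. RIPK1, a kinase that also serves as a scaffold, acts downstream of TNF receptors. Each value is an FPKM (fragments of a gene, scaled for the length of its transcript and for the mapped total of the library), a level per length.

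Before a cell copies its genome, the origin recognition complex, Cdc6 and Cdt1 load the MCM helicase onto DNA, and cyclin E kinase, Cdc45 and the GINS complex then activate it. DNA polymerase alpha with primase starts each strand, replication factor C loads the PCNA clamp, polymerases delta and epsilon extend the strand, and Fen1 and DNA ligase I join the pieces of the lagging strand. Ribonucleotide reductase, thymidylate synthase, thymidine kinase and dUTPase supply the deoxynucleotides. Resting T cells keep many of these genes low, and dividing lymphocytes raise them around the start of S phase, in large part through E2F transcription factors.

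Promoters of replication genes are known to carry E2F and CCAAT elements, and those of 6 members that the results turn on are shown. Promoters were found for 37 of the 45 members in the RefSeq table of build GRCm38.p6 (the first listed one where a gene had several), and the 250 bases before the start were searched on both strands. The E2F letters searched were TTTCCCGC, TTTCGCGC, TTTGCCGC and TTTGGCGC, printed in capitals; matches may overlap each other, and a sequence with no capitals holds none. Tk1 and Uhrf1 had the smallest p of all members, Mcm7 and Pola1 the smallest of the helicase and polymerase genes, and Mcm6, with the most matches, and Tyms, whose values ran the other way, were added after the values were seen. In the order printed, the windows lie at chr11:117826015-117826264 (minus strand), chr17:56303087-56303336 (plus strand), chr5:138171884-138172133 (minus strand), chr1:128359706-128359955 (minus strand), chrX:93632156-93632405 (minus strand) and chr5:30073626-30073875 (minus strand).
Tk1: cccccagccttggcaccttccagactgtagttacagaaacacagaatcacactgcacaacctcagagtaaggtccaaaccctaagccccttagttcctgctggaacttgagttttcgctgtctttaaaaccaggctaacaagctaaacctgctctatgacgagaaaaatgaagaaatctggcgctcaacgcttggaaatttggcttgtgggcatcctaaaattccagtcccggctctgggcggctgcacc
Uhrf1: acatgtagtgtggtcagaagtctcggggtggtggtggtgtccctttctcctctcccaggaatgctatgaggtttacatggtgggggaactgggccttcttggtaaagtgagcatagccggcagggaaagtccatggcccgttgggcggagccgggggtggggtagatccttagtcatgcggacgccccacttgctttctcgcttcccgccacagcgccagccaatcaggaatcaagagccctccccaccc
Mcm7: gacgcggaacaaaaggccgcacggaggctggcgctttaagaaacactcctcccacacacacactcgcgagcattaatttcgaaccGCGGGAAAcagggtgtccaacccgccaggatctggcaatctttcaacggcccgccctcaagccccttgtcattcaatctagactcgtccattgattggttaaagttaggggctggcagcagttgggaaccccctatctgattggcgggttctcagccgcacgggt
Mcm6: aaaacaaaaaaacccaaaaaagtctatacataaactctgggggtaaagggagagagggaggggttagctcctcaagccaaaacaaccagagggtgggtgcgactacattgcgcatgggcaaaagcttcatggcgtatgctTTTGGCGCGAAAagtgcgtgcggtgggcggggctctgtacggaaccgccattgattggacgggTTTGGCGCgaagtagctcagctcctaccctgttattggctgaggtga
Pola1: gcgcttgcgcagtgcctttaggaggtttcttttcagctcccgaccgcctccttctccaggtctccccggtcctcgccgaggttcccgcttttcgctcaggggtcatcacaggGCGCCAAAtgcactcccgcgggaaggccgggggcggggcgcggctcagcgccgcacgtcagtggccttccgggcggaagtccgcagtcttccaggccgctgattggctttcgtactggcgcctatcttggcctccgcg
Tyms: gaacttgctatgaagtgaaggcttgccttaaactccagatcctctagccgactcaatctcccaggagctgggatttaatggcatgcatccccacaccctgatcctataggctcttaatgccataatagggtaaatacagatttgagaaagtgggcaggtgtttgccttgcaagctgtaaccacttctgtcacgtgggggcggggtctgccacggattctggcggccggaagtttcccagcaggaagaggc

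The E2F letters stood in 7 of 37 member promoters (18.9%), against 1.91% of the 27025 promoters in the table and 3.60% of the 7756 promoters of tested genes. The 7 were Mcm5, Mcm6, Mcm7, Orc1, Cdc6, Rfc3 and Pola1. Mcm6 held 3 matches, the farthest beginning 110 bases and the nearest 47 bases before the start, and its first pair overlapped. The CCAAT box (CCAAT) stood in 23 of 37 member promoters (62.2%), against 34.5% of all promoters, and the CHR letters TTTGAA or TTCGAA in 6 (16.2%), against 17.4%. Among members called higher in KO as described below, 5 of 23 promoters held E2F letters and 17 of 23 a CCAAT box, against 1 of 13 and 5 of 13 for the tested members that were not called. The CHR letters stood in 6 of those 23 promoters and in 0 of the 13. These are matches of letters in a fixed window, given as a description: 6 of the 37 members lacked, in their own transcripts of another annotation, the bases that follow this start, Mcm6 among them.

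Most members were higher in KO. Of 45 members 42 reached the level needed for a test, at least 1 FPKM in 2 of the 4 libraries, and 24 of these (57.1%) were called higher at a limma adjusted p under 0.05 over all 11074 tested genes, of which 25.6% were called higher. No member was called lower in limma, with 0 at an unadjusted p under 0.05; of all tested genes 1.0% were called lower. The median log2 change of the 42 was 0.78 on the log2(FPKM + 1) scale, which understates changes of low genes, against 0.38 for all tested genes, and 36 of the 42 lay above that median gene. Both KO libraries stood above both WT libraries for 35 of the 42, against 58.5% of all tested genes, and below both for 1, Tyms, against 12.1%; the groups overlapped for 6. Among the 24 called, ratios of mean FPKM ran from 1.60 to 12.2 with a median of 2.51, and 6 were 4-fold or more. Of these 24, Uhrf1, Cdc45, Mcm10 and Chaf1a stood under 1 FPKM in both WT libraries. They reached the level for a test through the KO libraries alone, as did Cdc6, which was not called.

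All tested genes were higher on balance too, and the calls depended on the scaling of the libraries. After trimmed-mean scaling, which set the median gene at -0.01, the median member stood at 0.42, and 6 members were called higher (Tk1, Uhrf1, Lig1, Mcm7, Mcm6 and Rrm2), against 4.68% of all tested genes. Tyms was then called lower, as were 5.20% of all tested genes. After quantile normalization the median member was at 0.35 and 0 members passed in limma, with 14 higher at an unadjusted p under 0.05; 1.62% of all tested genes were called higher. With WT 1 left out, 0 members passed in limma, and of all tested genes 0.0813% were called higher. In that fit 24 members were higher at an unadjusted p under 0.05, as were 27.6% of all tested genes. The members' median relative to the median gene was 0.40 in that fit and 0.40 with all libraries kept. That fit rests on WT 2 alone for its group, and why the calls were lost was not tested. Without WT 2, 14 members were called higher, 10 of them among the 24, and 14.5% of all tested genes. Without KO 1, 14 members were called higher too, 13 of them among the 24, and 16.5% of all tested genes. With the replicate number as a block, 31 members were called higher, and 35.3% of all tested genes. The counts by role given below rest on 1 to 6 tested genes each and stand beside 25.6% of all tested genes as deposited; after trimmed-mean scaling the 6 calls were in the helicase ring, lagging-strand, nucleotide and chromatin genes, and 0 members of the other roles passed in limma. The gene named in the KO label was not lower in KO: Ripk1 stood at 10.4 and 9.54 FPKM in KO 1 and KO 2, against 5.61 and 5.60 FPKM in WT 1 and WT 2, and a value over the whole gene cannot show the loss of single exons. Each direction here is that of the libraries labelled KO.

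**Figure D1:**
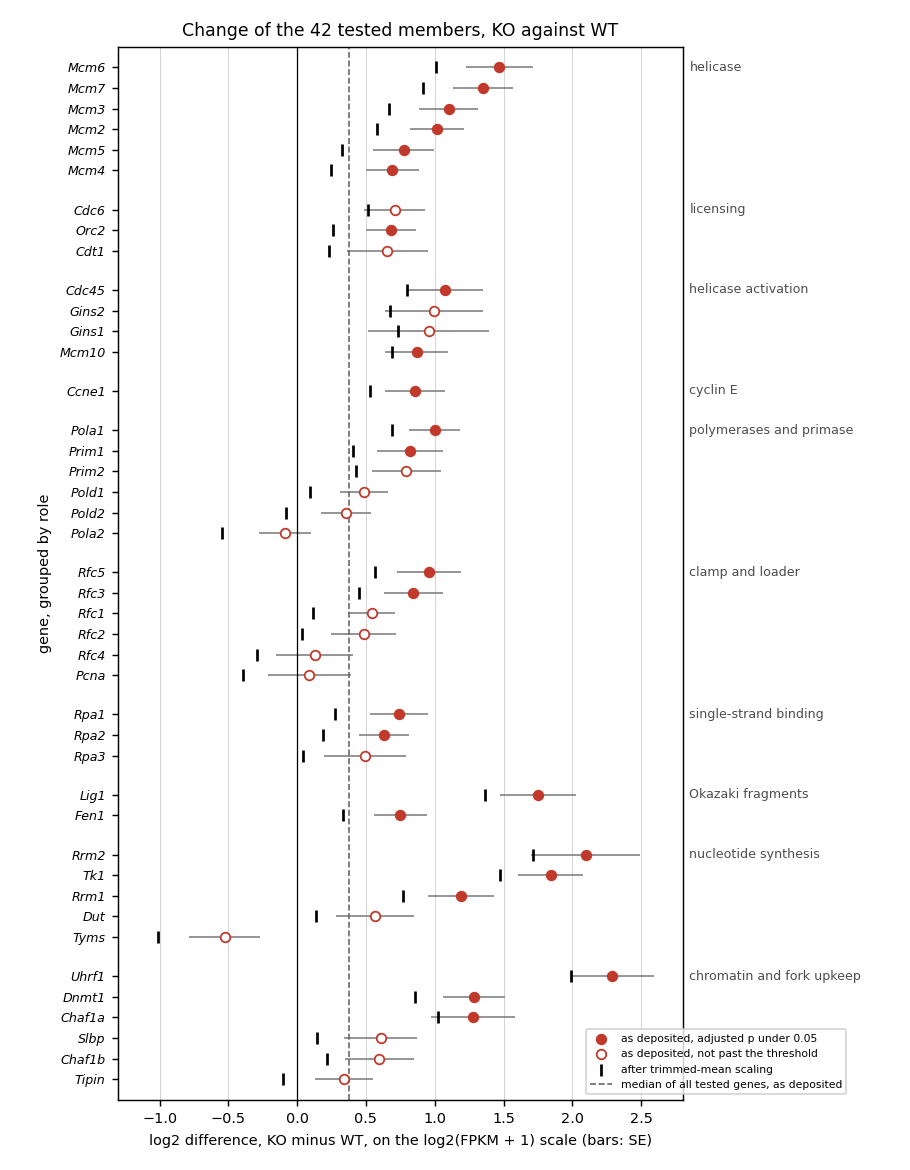
Log2 difference between KO and WT for the 42 tested members, grouped by role, with SE bars from limma (2 libraries per group); filled points passed as deposited, black ticks give the value after trimmed-mean scaling, and the dashed line is the median of all tested genes at 0.38. Uhrf1, Rrm2, Tk1 and Lig1 lie farthest right, and Tyms at -0.53 and Pola2 at -0.09 lie left of 0.

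All 6 genes of the MCM helicase ring, the motor that unwinds DNA at the fork, were called higher, with log2 changes of 0.69 to 1.47. Their summed level was 134 and 101 FPKM in KO 1 and KO 2, against 46.8 and 54.7 FPKM in WT 1 and WT 2. Mcm6 was at 45.1 and 31.5 FPKM in KO 1 and KO 2, against 11.8 and 14.3 FPKM in WT 1 and WT 2. The log2 difference came to 1.47 ± 0.24 (SE, adjusted p = 0.0142 in limma). Mcm7 was at 20.9 and 15.03 FPKM in KO 1 and KO 2, against 5.84 and 6.89 FPKM in WT 1 and WT 2. KO exceeded WT by 1.35 ± 0.22 on the log2 scale (SE, adjusted p = 0.0140 in limma). These were the helicase genes that also passed after trimmed-mean scaling, at log2 changes of 1.01, adjusted p = 0.0400, and 0.91, adjusted p = 0.0432, in limma. Mcm3 stood at 16.5 and 13.1 FPKM in KO 1 and KO 2, against 5.54 and 7.23 FPKM in WT 1 and WT 2 (limma adjusted p = 0.0179). Mcm2 stood at 15.2 and 12.2 FPKM in KO 1 and KO 2, against 5.82 and 6.65 FPKM in WT 1 and WT 2 (limma adjusted p = 0.0176). For all 6 subunits both KO libraries stood above both WT libraries, and KO 1 was the highest library. Mcm5 was at 18.9 and 13.3 FPKM in KO 1 and KO 2, against 8.84 and 8.91 FPKM in WT 1 and WT 2 (limma adjusted p = 0.0421). Mcm4 was at 17.2 and 15.8 FPKM in KO 1 and KO 2, against 8.97 and 10.7 FPKM in WT 1 and WT 2 (limma adjusted p = 0.0386). The rise of Mcm4 was the smallest of the ring at 1.67-fold, and that of Mcm6 the largest at 2.94-fold. The exons of Mcm7 overlap those of Ap4m1 and Cops6 in the annotation used here, and the counting is not stated to use strand, so some of its fragments may belong to those genes.

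Of the 4 licensing genes, which load the helicase at origins, 1 of 3 tested was called higher, beside 25.6% of all tested genes. Orc2, a subunit of the origin recognition complex, was at 9.90 and 8.41 FPKM in KO 1 and KO 2, against 5.57 and 5.07 FPKM in WT 1 and WT 2. On the log2 scale its change was 0.68 ± 0.18 (SE, adjusted p = 0.0351 in limma). Cdc6, the loader that joins that complex, was at 1.36 and 1.17 FPKM in KO 1 and KO 2, against 0.215 and 0.584 FPKM in WT 1 and WT 2, and missed the threshold (limma adjusted p = 0.0568). Cdt1, the partner of the MCM ring, missed it too, at 9.21 and 10.96 FPKM in KO 1 and KO 2, against 4.22 and 8.44 FPKM in WT 1 and WT 2 (limma adjusted p = 0.137). Both KO libraries stood above both WT libraries for each of them. Orc1, the largest origin subunit, was too low for the test, at 0.545 and 0.352 FPKM in KO 1 and KO 2, against 0.0663 and 0.289 FPKM in WT 1 and WT 2. With a depth of about 17500000 and 19000000 fragments in KO 1 and KO 2 and 21300000 and 22100000 in WT 1 and WT 2, estimated from the steps of low values, its lowest value rested on about 3.98 fragments.

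Of the 4 helicase activators 2 were called higher, Cdc45 and Mcm10. Cdc45, which binds the MCM ring to form the active helicase, was at 3.76 and 1.80 FPKM in KO 1 and KO 2, against 0.745 and 0.722 FPKM in WT 1 and WT 2. For Cdc45 the log2 change was 1.07 ± 0.28 (SE, adjusted p = 0.0332 in limma). Mcm10, needed to switch that helicase on, was at 1.60 and 1.01 FPKM in KO 1 and KO 2, against 0.184 and 0.329 FPKM in WT 1 and WT 2 (limma adjusted p = 0.0345). The GINS subunits varied within WT: Gins1 was at 3.42 and 1.23 FPKM in KO 1 and KO 2, against 0.105 and 1.38 FPKM in WT 1 and WT 2 (limma adjusted p = 0.147). Gins2 was at 4.34 and 3.86 FPKM in KO 1 and KO 2, against 0.725 and 2.81 FPKM in WT 1 and WT 2 (limma adjusted p = 0.0798). In both GINS genes WT 1 was the lowest library, and KO 2 lay below WT 2 for Gins1. Of the cyclins E, which start S phase with Cdk2, Ccne1 was at 4.24 and 2.76 FPKM in KO 1 and KO 2, against 1.38 and 1.52 FPKM in WT 1 and WT 2. This gave a log2 difference of 0.86 ± 0.22 (SE, adjusted p = 0.0319 in limma). Ccne2 stayed below the level for a test, at 0.646 and 0.498 FPKM in KO 1 and KO 2, against 0.0496 and 0.353 FPKM in WT 1 and WT 2.

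The catalytic subunit of DNA polymerase alpha was called higher, and its accessory subunit was not. Pola1, that catalytic subunit, was at 3.51 and 2.97 FPKM in KO 1 and KO 2, against 1.01 and 1.23 FPKM in WT 1 and WT 2. The log2 difference came to 0.998 ± 0.19 (SE, adjusted p = 0.0171 in limma). Pola2, its accessory subunit, was at 18.9 and 17.8 FPKM in KO 1 and KO 2, against 20.5 and 18.6 FPKM in WT 1 and WT 2. The log2 change of Pola2 was -0.09 ± 0.19 (SE, adjusted p = 0.741 in limma), with a 95% interval from -0.53 to 0.36. The KO values of Pola1 were all above those of WT, and those of Pola2 overlapped with WT. Prim1, the catalytic primase subunit that lays down the RNA primer, was at 9.93 and 6.997 FPKM in KO 1 and KO 2, against 5.15 and 3.56 FPKM in WT 1 and WT 2 (limma adjusted p = 0.0448). Prim2, the other primase subunit, was at 5.98 and 3.42 FPKM in KO 1 and KO 2, against 2.36 and 2.05 FPKM in WT 1 and WT 2 (limma adjusted p = 0.0554). Only the first of these passed, and the ratios of means were close, 1.94 and 2.13. The delta polymerase genes did not pass: Pold1, its catalytic subunit, was at 5.30 and 5.38 FPKM in KO 1 and KO 2, against 3.82 and 3.25 FPKM in WT 1 and WT 2 (limma adjusted p = 0.0775). Pold2 was at 10.4 and 9.90 FPKM in KO 1 and KO 2, against 7.02 and 8.49 FPKM in WT 1 and WT 2 (limma adjusted p = 0.184) and was below 0 after trimmed-mean scaling (-0.08). Pole, the catalytic subunit of the leading-strand polymerase, was too low for the test, at 2.01 and 0.894 FPKM in KO 1 and KO 2, against 0.403 and 0.423 FPKM in WT 1 and WT 2.

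The gene of the sliding clamp, which holds polymerases on DNA, did not pass the test. Pcna was among the 2 most abundant members, at 122 and 141 FPKM in KO 1 and KO 2, against 94.6 and 161 FPKM in WT 1 and WT 2. The log2 change of Pcna was 0.09 ± 0.30 (SE, adjusted p = 0.842 in limma), with a 95% interval from -0.63 to 0.81. The WT libraries lay on either side of both KO libraries, and the sign of the difference turned after trimmed-mean scaling (-0.39) and without WT 1 or KO 2. Of the loader subunits, which open the clamp, 2 of 5 were called higher. Rfc5 was at 6.87 and 7.25 FPKM in KO 1 and KO 2, against 2.38 and 4.11 FPKM in WT 1 and WT 2. For Rfc5 the log2 change was 0.96 ± 0.23 (SE, adjusted p = 0.0286 in limma). Rfc3 was at 8.29 and 5.91 FPKM in KO 1 and KO 2, against 3.08 and 3.88 FPKM in WT 1 and WT 2. This gave a log2 difference of 0.84 ± 0.21 (SE, adjusted p = 0.0319 in limma). Rfc1, the large subunit, was at 9.82 and 9.66 FPKM in KO 1 and KO 2, against 6.24 and 6.51 FPKM in WT 1 and WT 2, close to the threshold (limma adjusted p = 0.0554). Rfc2 was at 18.7 and 18.2 FPKM in KO 1 and KO 2, against 10.4 and 15.9 FPKM in WT 1 and WT 2 (limma adjusted p = 0.164), and here WT 2 lay near the KO libraries. Rfc4 was at 9.46 and 4.88 FPKM in KO 1 and KO 2, against 6.16 and 6.19 FPKM in WT 1 and WT 2 (limma adjusted p = 0.748), so that KO 1 was above and KO 2 below both WT libraries. Pcna and Tyms each have named pseudogenes in the annotation used here, and values of genes with near-identical copies are uncertain.

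Replication protein A, the trimer that coats single-stranded DNA, rose in 2 of 3 subunits. Rpa1 was at 45.001 and 40.6 FPKM in KO 1 and KO 2, against 22.8 and 27.7 FPKM in WT 1 and WT 2. The log2 difference came to 0.74 ± 0.21 (SE, adjusted p = 0.0419 in limma). Rpa2 was at 14.8 and 15.1 FPKM in KO 1 and KO 2, against 8.55 and 10.1 FPKM in WT 1 and WT 2. KO exceeded WT by 0.63 ± 0.19 on the log2 scale (SE, adjusted p = 0.0467 in limma). Rpa3 was at 18.1 and 19.8 FPKM in KO 1 and KO 2, against 9.52 and 18.1 FPKM in WT 1 and WT 2 (limma adjusted p = 0.242), where WT 2 reached the KO level. The genes that finish the lagging strand were both called higher. Lig1, DNA ligase I, was at 12.7 and 8.71 FPKM in KO 1 and KO 2, against 1.74 and 3.28 FPKM in WT 1 and WT 2, a 4.25-fold ratio of means. On the log2 scale its change was 1.75 ± 0.28 (SE, adjusted p = 0.0139 in limma). It passed after trimmed-mean scaling too (1.36, adjusted p = 0.0364, limma). The exons of Lig1 overlap those of Zswim9. Fen1, the flap endonuclease, was at 9.33 and 7.50 FPKM in KO 1 and KO 2, against 4.14 and 5.04 FPKM in WT 1 and WT 2 (limma adjusted p = 0.0337).

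The nucleotide enzymes held some of the steepest rises and also Tyms, which ran the other way. Rrm2, the S-phase subunit of ribonucleotide reductase, was at 18.2 and 6.71 FPKM in KO 1 and KO 2, against 1.81 and 1.87 FPKM in WT 1 and WT 2. For Rrm2 the log2 change was 2.10 ± 0.39 (SE, adjusted p = 0.0173 in limma). Rrm1, its large subunit, was at 15.1 and 9.60 FPKM in KO 1 and KO 2, against 4.43 and 5.04 FPKM in WT 1 and WT 2. This gave a log2 difference of 1.19 ± 0.24 (SE, adjusted p = 0.0192 in limma). Both WT libraries were nearly equal for each gene, and KO 1 exceeded KO 2. Tk1, the salvage kinase for thymidine, was at 9.14 and 6.60 FPKM in KO 1 and KO 2, against 1.88 and 1.08 FPKM in WT 1 and WT 2. The log2 difference came to 1.84 ± 0.24 (SE, adjusted p = 0.0127 in limma). The exons of Tk1 overlap those of Afmid. Dut, which removes dUTP and makes dUMP, was at 12.3 and 8.57 FPKM in KO 1 and KO 2, against 5.04 and 8.64 FPKM in WT 1 and WT 2 (limma adjusted p = 0.169), with KO 2 just under WT 2. Tyms, which makes dTMP from dUMP, had the highest level of all members in each library, at 234 and 204 FPKM in KO 1 and KO 2, against 365 and 273 FPKM in WT 1 and WT 2. Both KO libraries lay below both WT libraries for Tyms. The log2 change of Tyms was -0.53 ± 0.26 (SE, adjusted p = 0.165 in limma) as deposited. After trimmed-mean scaling it was -1.01, adjusted p = 0.0494, in limma. Tyms made up 26.8% and 26.9% of the summed FPKM of the members in KO 1 and KO 2, against 53.6% and 38.4% in WT 1 and WT 2. The sum over all 45 members was 874 and 758 FPKM in KO 1 and KO 2, against 682 and 710.3 FPKM in WT 1 and WT 2. Over the 44 without Tyms it was 639.8 and 554 FPKM in KO 1 and KO 2, against 317 and 437 FPKM in WT 1 and WT 2.

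Genes that copy chromatin marks and package new DNA included Uhrf1, the member with the largest ratio of mean FPKM. Uhrf1, which recognises hemimethylated DNA behind the fork, was at 9.64 and 4.67 FPKM in KO 1 and KO 2, against 0.582 and 0.592 FPKM in WT 1 and WT 2, a 12.2-fold ratio. On the log2 scale its change was 2.29 ± 0.30 (SE, adjusted p = 0.0127 in limma). On that scale the order of the members depended on the pseudocount: with 5 in place of 1 the log2 change was 1.09 for Uhrf1, 1.27 for Rrm2 and 1.25 for Mcm6. Dnmt1, the maintenance DNA methyltransferase that Uhrf1 recruits, was at 17.6 and 11.9 FPKM in KO 1 and KO 2, against 5.62 and 5.07 FPKM in WT 1 and WT 2. For Dnmt1 the log2 change was 1.29 ± 0.23 (SE, adjusted p = 0.0153 in limma). Chaf1a, the large subunit of chromatin assembly factor 1, was at 3.89 and 1.83 FPKM in KO 1 and KO 2, against 0.330 and 0.770 FPKM in WT 1 and WT 2. This gave a log2 difference of 1.28 ± 0.30 (SE, adjusted p = 0.0272 in limma). In all 3 genes both KO libraries were above both WT libraries, and KO 1 was highest. Chaf1b, its middle subunit, was at 6.23 and 3.65 FPKM in KO 1 and KO 2, against 3.16 and 2.53 FPKM in WT 1 and WT 2 (limma adjusted p = 0.115). Slbp, which binds the stem-loop of histone mRNA, was at 28.3 and 29.1 FPKM in KO 1 and KO 2, against 14.3 and 23.8 FPKM in WT 1 and WT 2 (limma adjusted p = 0.128). Tipin, of the fork protection complex, was at 15.7 and 12.8 FPKM in KO 1 and KO 2, against 9.61 and 12.5 FPKM in WT 1 and WT 2 (limma adjusted p = 0.257), and changed sign after trimmed-mean scaling (-0.11).

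**Figure D2:**
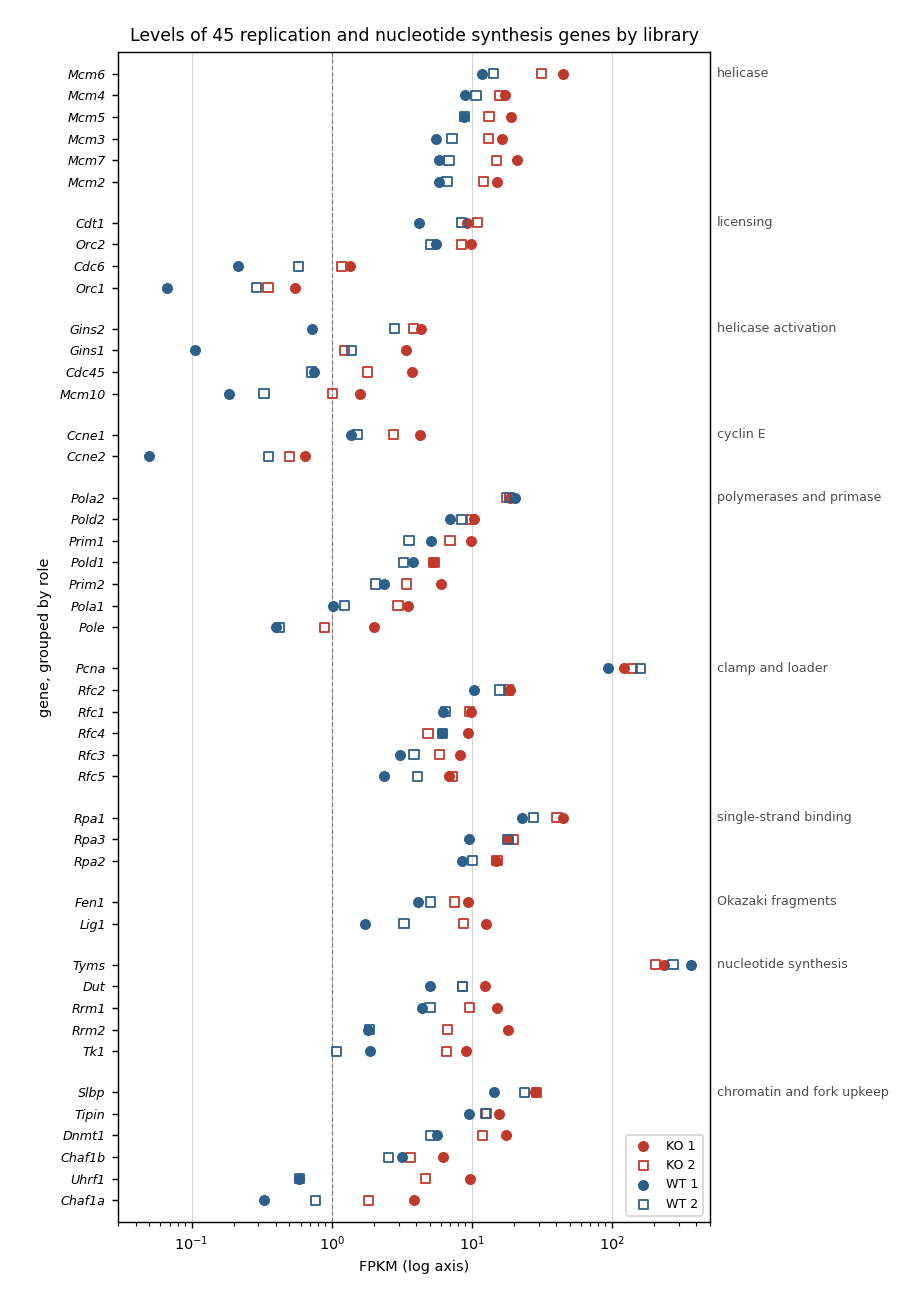
FPKM of the 45 members in each library on a log axis, grouped by role, with KO in red and WT in blue and the dashed line at 1 FPKM. Red points lie right of blue ones for most genes, Tyms and Pcna are the most abundant, and the gap within a group is widest for low genes such as Gins1, Ccne2 and Orc1 in WT.

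Ratios between partner genes do not depend on a scaling factor per library. Of 9 such ratios, 2 overlapped between the groups, and the share over other pairs of genes was not computed. Of single tested genes, 58.5% had both KO libraries above both WT libraries and 12.1% had both below, so the count is a description only. Rrm2 over Rrm1 was 1.20 and 0.699 in KO 1 and KO 2, against 0.409 and 0.371 in WT 1 and WT 2. Uhrf1 over Dnmt1 was 0.549 and 0.393 in KO 1 and KO 2, against 0.104 and 0.117 in WT 1 and WT 2. Mcm6 over the mean of the other 5 genes of the ring was 2.54 and 2.27 in KO 1 and KO 2, against 1.68 and 1.77 in WT 1 and WT 2. For these 3 pairs both KO libraries were above both WT libraries. Pola2 over Pola1 was 5.39 and 5.97 in KO 1 and KO 2, against 20.2 and 15.2 in WT 1 and WT 2. Cdt1 over Cdc6 was 6.76 and 9.34 in KO 1 and KO 2, against 19.6 and 14.5 in WT 1 and WT 2. Pcna over Rfc1, the clamp over its loader, was 12.4 and 14.6 in KO 1 and KO 2, against 15.2 and 24.7 in WT 1 and WT 2. In these 3 ratios both KO libraries were below both WT libraries. Tk1 over Tyms, both sources of dTMP, was 0.0390 and 0.0323 in KO 1 and KO 2, against 0.00514 and 0.00397 in WT 1 and WT 2, with KO above WT. Rpa1 over Rpa2 was 3.03 and 2.68 in KO 1 and KO 2, against 2.66 and 2.74 in WT 1 and WT 2, and these values overlapped. Rpa3 over Rpa2 was 1.22 and 1.31 in KO 1 and KO 2, against 1.11 and 1.79 in WT 1 and WT 2, and these overlapped as well. The pairs were picked after the values were seen and the ratios were not tested. A ratio shows unequal change and not which partner moved. With 2 libraries against 2 an exact permutation test cannot give a two-sided p below 0.333.

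**Figure D3:**
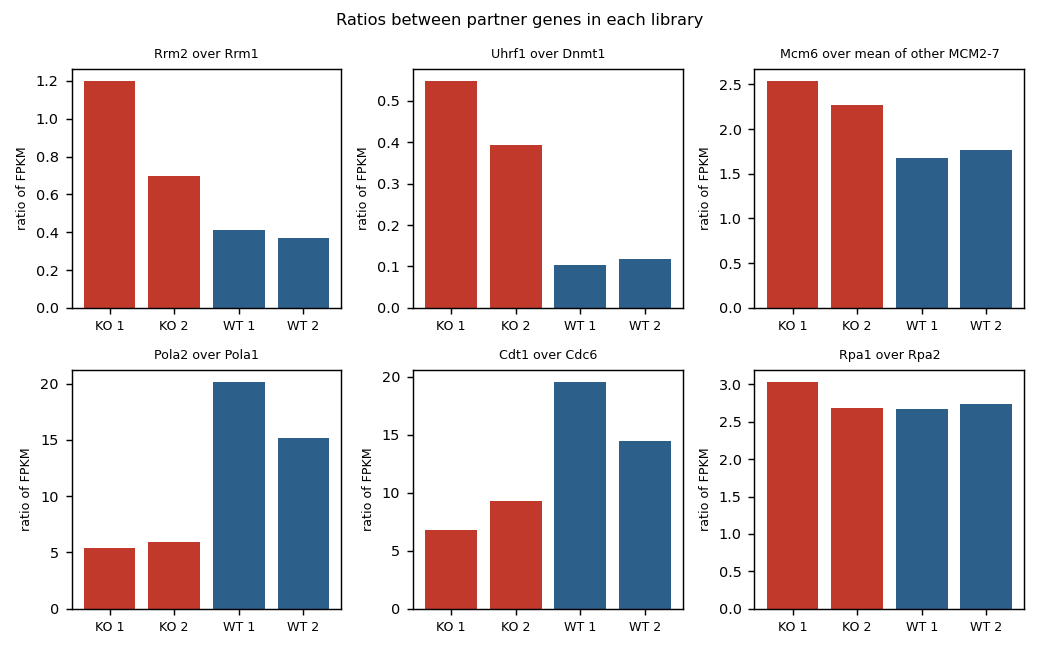
Ratio of FPKM between partner genes in each library, with KO in red left of WT in blue. Rrm2 over Rrm1, Uhrf1 over Dnmt1 and Mcm6 over the other ring genes are higher in both KO libraries, Pola2 over Pola1 and Cdt1 over Cdc6 are lower, and Rpa1 over Rpa2 overlaps.

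The KO libraries differed from each other in these genes. KO 1 was above KO 2 for 35 of the 42 tested members (83.3%), against 58.0% of all tested genes, and for 22 of the 24 called higher. The ratio of KO 1 to KO 2 had a median of 1.41 over the called members and 1.09 over the 18 others that were tested. Between the WT libraries, WT 2 was above WT 1 for 76.2% of the tested members and 68.2% of all tested genes. Members that were low in WT had larger log2 differences: across the 42 tested genes the Spearman correlation of the WT mean with the log2 change was -0.59, a description over genes that share libraries and whose WT values enter both measures. The filter builds in part of this relation. A member under 1 FPKM in both WT libraries was tested only if both KO libraries reached 1 FPKM. Uhrf1, Cdc45, Mcm10, Chaf1a and Cdc6 entered in this way, and Orc1, Ccne2 and Pole did not enter. The WT mean was under 1 FPKM for 9 of 45 members and the KO mean for 2, Ccne2 and Orc1.

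Further genes of the pathway were taken as whole lists, which were set with earlier results of these data known. Of 34 tested genes of a further replication list, 9 were called higher (26.5%) and 0 lower, close to the 25.6% of all tested genes, with a median log2 change of 0.44. Asf1b, a histone chaperone of the fork, was at 9.71 and 5.44 FPKM in KO 1 and KO 2, against 1.07 and 1.45 FPKM in WT 1 and WT 2 (limma adjusted p = 0.0129). Hells, a chromatin remodeller, rose 2.74-fold (limma adjusted p = 0.0184). Clspn, the checkpoint adaptor claspin, rose 5.23-fold (limma adjusted p = 0.0203). Topbp1, which takes part in origin firing and in checkpoint signalling, rose 1.85-fold (limma adjusted p = 0.0263). After trimmed-mean scaling Asf1b was called higher, and Rnaseh2c and Pole4 lower, beside 4.68% and 5.20% of all tested genes. Of this list 1 gene was called higher without WT 2, 3 without KO 1 and 0 without WT 1 in limma, with 9 at an unadjusted p under 0.05. Of 30 tested genes of nucleotide supply outside the members, 4 were called higher (13.3%) and 0 lower, with a median of 0.39, and 0 were called higher after trimmed-mean scaling in limma, with 3 at an unadjusted p under 0.05. Nme1 and Nme2, paralogs that make nucleoside triphosphates, were then called lower, at log2 changes of -0.88 (adjusted p = 0.0343) and -0.90 (adjusted p = 0.0402) in limma. Of this list 2 genes were called higher without WT 2, 1 without KO 1, 8 with the replicate block and 0 without WT 1 in limma, with 7 at an unadjusted p under 0.05. The 4 included Cad, of pyrimidine synthesis (2.52-fold, limma adjusted p = 0.0175), and Dck, a deoxynucleoside kinase (1.98-fold, limma adjusted p = 0.0208). The others were Samhd1, which breaks down deoxynucleotides (2.09-fold, limma adjusted p = 0.0238), and Adss, of AMP synthesis (1.72-fold, limma adjusted p = 0.0331).

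Of 24 tested mitosis genes, whose peak follows S phase, 17 were called higher (70.8%) and 0 lower, with a median log2 change of 1.38. After trimmed-mean scaling 8 were called higher, after quantile normalization 2, and without WT 2 only 4. Without WT 1, 0 mitosis genes passed in limma, with 16 at an unadjusted p under 0.05. Mki67, the proliferation antigen, rose 16.6-fold. The log2 difference came to 2.99 ± 0.35 (SE, adjusted p = 0.0111 in limma). Top2a, which untangles chromosomes, was at 24.3 and 10.4 FPKM in KO 1 and KO 2, against 0.947 and 1.70 FPKM in WT 1 and WT 2 (limma adjusted p = 0.0127). Bub1b rose 9.17-fold (limma adjusted p = 0.0140) and Ccnb2 7.35-fold (limma adjusted p = 0.0159). KO 1 was above KO 2 for these 4 genes as for most members. Mki67 and Bub1b, like others of the list, stood under 1 FPKM in both WT libraries and were tested through the KO libraries alone. With at least 1 FPKM required in all 4 libraries, 11 mitosis genes were tested and 6 were called higher in limma. In bulk RNA, more dividing cells and more of these transcripts per cell cannot be told apart. The E2F letters stood in 1 of 22 mitosis promoters and the CHR letters in 9 (40.9%), against 16.2% of the member promoters for CHR. The CCAAT box stood in 19 of 22 mitosis promoters (86.4%), against 62.2% of the member promoters. No difference between these lists and the members was tested.

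**Figure D4:**
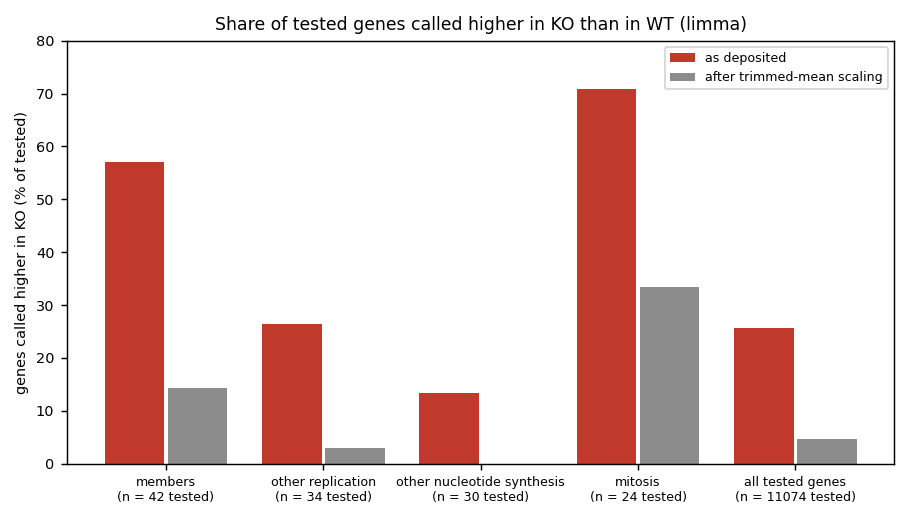
Percent of tested genes called higher in KO by limma, as deposited (red) and after trimmed-mean scaling (grey), for the members, the further lists and all tested genes. The members stand at 57.1% and 14.3%, above all tested genes at 25.6% and 4.68%, and the mitosis genes at 70.8% and 33.3% are the highest. Some members and mitosis genes reached the level for a test through the KO libraries alone.

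Defining genes of helper T cells were abundant in all libraries, and 3 of 6 T cell markers were called higher. The counts of markers called higher stand beside 25.6% of all tested genes as deposited and 4.68% after trimmed-mean scaling. They rest on few genes each. Cd3e was at 151 and 129 FPKM in KO 1 and KO 2, against 61.3 and 76.9 FPKM in WT 1 and WT 2. Cd4 was at 211 and 185 FPKM in KO 1 and KO 2, against 86.3 and 87.3 FPKM in WT 1 and WT 2. Cd3g was at 356 and 332 FPKM in KO 1 and KO 2, against 262 and 362 FPKM in WT 1 and WT 2 (limma adjusted p = 0.667). Cd3d ran the other way, at 175 and 169 FPKM in KO 1 and KO 2, against 185 and 238 FPKM in WT 1 and WT 2 (limma adjusted p = 0.395), and trimmed-mean scaling put it at -0.76, where limma called it lower (adjusted p = 0.0422). Of the CD8 genes, Cd8a stayed at or under 0.764 FPKM, and Cd8b1 was at 10.3 and 11.3 FPKM in KO 1 and KO 2, against 10.9 and 10.5 FPKM in WT 1 and WT 2, level across the libraries. Of 7 tested rows of erythroid markers 7 were called higher as deposited, 2 after trimmed-mean scaling, and 0 without WT 1 in limma, with 6 at an unadjusted p under 0.05. The list summed to 562 and 451 FPKM in KO 1 and KO 2, against 9.97 and 146 FPKM in WT 1 and WT 2. Klf1, an erythroid transcription factor, was at most 0.639 FPKM. B cell markers were called higher for 2 of 3 tested and summed to 14.2 and 13.6 FPKM in KO 1 and KO 2, against 6.62 and 6.51 FPKM in WT 1 and WT 2. Cd79a, also tested, was not called (limma adjusted p = 0.509). Pax5, too low for the test, was highest in WT 1, at 0.113 and 0.103 FPKM in KO 1 and KO 2, against 0.417 and 0 FPKM in WT 1 and WT 2. Of the 3 tested markers of germinal centre and plasma cells 1 was called higher, Prdm1, which T cells also express. The list summed to 31.4 and 34.2 FPKM in KO 1 and KO 2, against 20.6 and 22.9 FPKM in WT 1 and WT 2. Most of that was Fas, at 18.8 and 19.7 FPKM in KO 1 and KO 2, against 14.8 and 15.3 FPKM in WT 1 and WT 2 (limma adjusted p = 0.196). Sdc1, too low for the test, was at 0.477 and 0.820 FPKM in KO 1 and KO 2, against 1.01 and 0.775 FPKM in WT 1 and WT 2. Myeloid markers were called higher for 1 of 3 tested and summed to 20.1 and 51.6 FPKM in KO 1 and KO 2, against 5.28 and 41.3 FPKM in WT 1 and WT 2, with Cd14 at 0 in all libraries but KO 1; the sums overlap between the groups. Erythroid precursors and germinal centre B cells divide and use the same replication genes, and the part of such cells in the members' values was not tested. The order of the erythroid sums, KO 1 above KO 2 above WT 2 above WT 1, was that of the members' sum with or without Tyms. The sums of the T cell markers and of the mitosis genes had this order too. For the mitosis genes the WT sums were close, at 83.5 FPKM in WT 1 and 84.8 FPKM in WT 2. No cause of these orders was tested. The B cell, germinal centre and plasma cell, and myeloid sums had other orders.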

How the data were processed

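RNA from 4 libraries was measured. Per the labels' protocols, a Direct-zol kit was used for extraction, and the NEBNext Ultra kit turned 200 ng of RNA into each library; the submitters' processing notes name Bowtie 0.12.2 and mm8. The authors deposited 1 FPKM table per library, per the file headers; the program, annotation and filters behind FPKM remain not given in the sources used here. FPKM is scaled to each library's total, so a few abundant genes can shift all others. The groups differed in scale: trimmed-mean scaling divided KO 1 and KO 2 by 1.21 and 1.16, and WT 1 and WT 2 by 0.791 and 0.905. In each library the 100 rows with the highest FPKM were summed. They held 35.9% and 37.2% of the summed FPKM in KO 1 and KO 2, against 52.5% and 54.6% in WT 1 and WT 2. The part of abundant genes in the scale difference was not tested. Members are rows whose symbol is on the member list, and no symbol among them stood on more than 1 row.

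limma 3.58.1 (R 4.3.3, intensity trend) was fitted to log2(FPKM + 1) of every gene that reached 1 FPKM in 2 or more libraries; tests were two-sided, with Benjamini-Hochberg adjustment over all 11074 of them and a threshold of 0.05. The procedure was tested on simulated libraries with no scale difference and as many genes raised as lowered. That test cannot show how the calls fare under a scale difference such as the one seen here. The members, the lists and the tests were chosen with earlier results of these data known. All members are named, with up to 4 genes of each further list by unadjusted p; Rnaseh2c, Pole4 and the marker genes shown were picked after the values were seen, as were the ratios. Some genes of the lists are not reported here by name. 37 of 38 and 32 of 32 further symbols and 26 of 26 mitosis symbols matched a row. Depth was estimated from low values of genes with 1 transcript, assuming fragments of 200 nt; 61.3% to 67.6% of those values lay within 0.1 of a whole fragment, too few for a count test. Trimmed-mean scaling used WT 1 as the standard and trimmed 30% of log ratios and 5% of levels at each side. The alternatives were other pseudocounts (0.1 and 5), other filters, both scalings, limma without the trend, the replicate number as a block, and each library left out. Exons of 12 members overlap those of another coding gene in GENCODE M21. Those of them called higher were Mcm7, Tk1, Cdc45, Orc2, Rfc5, Lig1, Fen1 and Chaf1a. Promoter sequences are RefSeq's, of GRCm38.p6. Python 3.11.15 was used with pandas 2.3.3, numpy 2.4.6 and matplotlib 3.10.9.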

Additional observations from a re-analysis of the deposited data

How the results depend on the processing

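The direction of the members' median relative to the median gene (0.40) was the same under all 12 alternatives; it was 0.23 with a pseudocount of 5 and 0.66 with no filter, and ran from 0.28 to 0.56 on leaving out 1 library. Counts of calls depended on more. On leaving out 1 library, members called higher ran from 0 (without WT 1) to 24 (without KO 2) and all genes called from 9 to 2173 higher and from 1 to 132 lower. With no filter 20086 rows were tested, 3 genes were called higher and 0 lower in limma, and 0 members passed, with 29 members higher at an unadjusted p under 0.05. After trimmed-mean scaling 518 genes were called higher and 576 lower, and of the members 6 higher and 1 lower (Tyms). After quantile normalization 179 genes were called higher and 0 members in limma, with 14 members higher at an unadjusted p under 0.05. With other pseudocounts, a stricter filter or no trend, 22 to 24 members were called higher. The cause of these moves was not tested.

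With the replicate number as a block, 31 members were called higher, all 24 among them, and of all tested genes 3909 were called higher, against 2832 without it, and 230 lower. The labels do not say what the shared numbers mean; the deviations of KO 1 and WT 1 from their group means had a correlation of 0.11 over 11074 genes, and with 2 pairs this does not show a pairing.

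Members that changed sign had not been called. On leaving out 1 library, Pcna ran from -0.29 (without WT 1) to 0.47 and was at -0.02 without KO 2, and Rfc4 ran from -0.29 (without KO 1) to 0.54. Trimmed-mean scaling put Pcna at -0.39, Rfc4 at -0.29, Pold2 at -0.080 and Tipin at -0.11. Quantile normalization put Pcna at -0.13, Rfc4 at -0.33, Pold2 at -0.083 and Tipin at -0.076. Depth limits the lowest members, Orc1 and Ccne2, whose values in WT 1 rest on a few fragments.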
